A study of Mus musculus with 20 samples.

Results

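The genes described here are those of the urea cycle and of amino acid breakdown in the liver. They were taken from a list of 49 genes in 10 pathways, and a gene counted as measured where a probe set carried its symbol and no other. That gave 47 genes on 70 probe sets, of 18193 genes on 34945 probe sets with 1 symbol (45101 probe sets in all). Gls2 and Amt had no such probe set and were not analysed here.

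The livers came from 20 male C57BL/6J mice, bought at 3 weeks of age and 8 weeks old in the study, which were fasted for 16 h and killed on day 30. Feeding lasted 4 weeks: 10 mice received chow of 45 kcal% fat alone (HFD), and the other 10 received it with 0.02% of a maple syrup extract (MSXH), so that every mouse was on the high-fat diet. Each mouse gave 1 Affymetrix 3' array of total liver RNA. The series text also names a low-fat group and a group with more extract, which are not analysed here.

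Breakdown of amino acids releases ammonia, which the liver turns into urea in the periportal hepatocytes and, for what escapes, into glutamine in a thin layer of cells around the central vein. The carbon skeletons go to glucose, ketone bodies or the citric acid cycle, and these routes are most active in fasting, under glucagon and glucocorticoids. In bulk liver RNA, fewer cells of a type and less RNA per cell cannot be told apart.

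Array medians lay between 6.5216 and 6.5226 on the deposited log scale, whose base is not stated. MSXH 4 (6.5226) and MSXH 6 (6.5223) held the upper end, and no other array exceeded 6.5217. Alb, the hepatocyte marker albumin, stood at 14.71 in every mouse, and the 6 of 8 hepatocyte markers measured summed to 84.523 in both groups. Those figures could not show a difference, since the marker of largest spread, Apob, had an SD of 0.000114. Bcat2 was the 1 gene of the 47 below the array median. The spread between arrays was compressed, with a median SD of 1.07e-05 over all probe sets and of 6.67e-05 over the 47 genes. For that reason a difference is stated as the standardized difference (the MSXH mean minus the HFD mean, over the pooled SD within groups), and positions of single mice as deviations from the gene's mean in units of its SD over 20 arrays, never as folds. The number of arrays limits the precision. MSXH 4 and MSXH 6 stood apart by skeletal muscle transcripts: the summed level of 22 muscle genes ran from 140.731 to 141.597 in HFD and from 140.834 to 164.592 in MSXH. Without these 2 arrays, 6 of the 47 genes lay at an unadjusted p under 0.05 (12.8%, against 10.3% of all genes), and 4 with them.

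The comparison of MSXH with HFD asks whether the extract changed these genes in the liver of mice on a high-fat diet. None of the 47 genes passed the test (limma, Benjamini-Hochberg adjusted p from 0.315 to 0.993), and neither did any of the 18193 genes, a background of 0.0%. A rank sum test called 4 of the 18193 genes, 0 of them among the 47, and limma called 3 without HFD 3, again 0 of the 47. At an unadjusted p under 0.05 stood 4 of the 47 genes, or 8.51%, where 10.9% of all genes did so. These were Uroc1, Amdhd1, Haao and Nags. All 4 had the higher mean in MSXH, a direction in which 6.58% of all genes passed that mark against 4.31% in the other, so their number was near the background. It was 7 without HFD 2 (14.9%, against 10.6% of all genes in that fit) and 9 without MSXH 10 (19.1%, against 11.4%). The mean was higher in MSXH for 34 of the 47 genes (72.3%), and for 54.7% of all genes. The median standardized difference was 0.175 over the 47 genes and 0.067 over all genes. Centring each array on its median turned the sign of 25 of the 47 genes, and quantile normalization that of 17 of the 38 it left with any spread, while the share of all genes with a higher mean in MSXH dropped to 2.75% and 7.16%. With MSXH 4 and MSXH 6 left out as well, centring turned 6 of the 47 and quantile normalization 13 of 33. Centring lowers these 2 arrays against the rest by more than the median SD of the 47 genes, 6.67e-05.

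**Figure D1:**
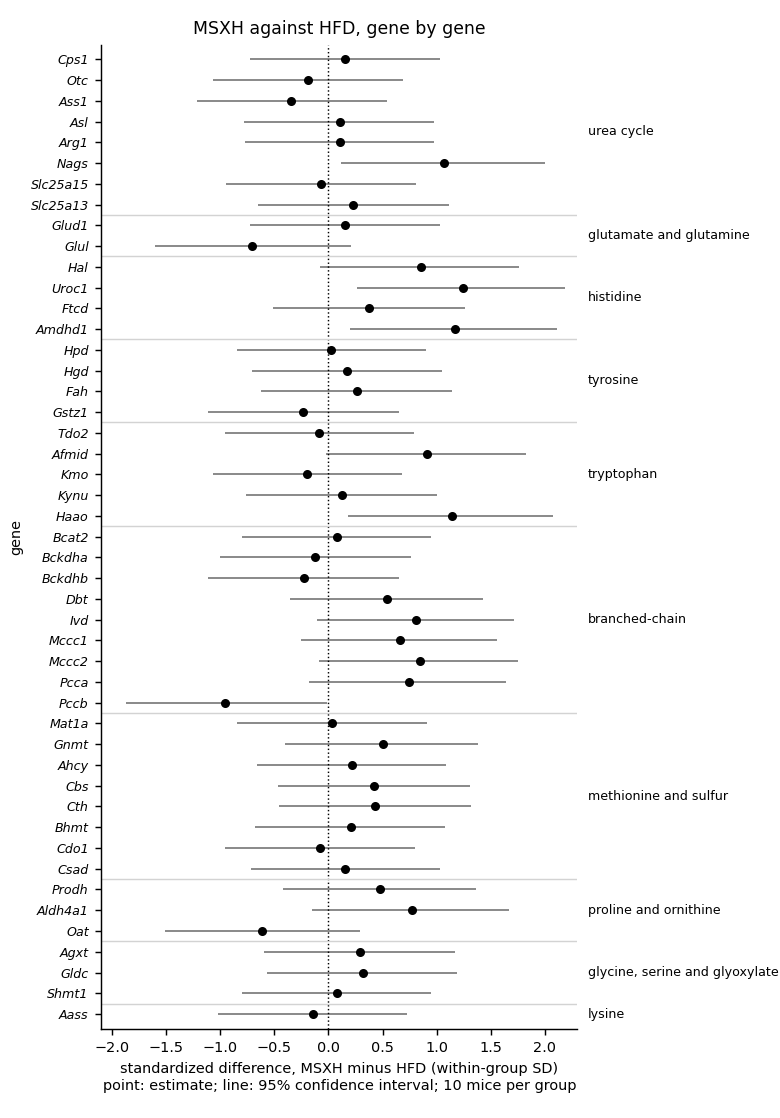
Standardized difference between MSXH and HFD (horizontal axis, in SD within groups) for each of the 47 genes (vertical axis, by pathway); points are estimates, lines are 95% confidence intervals, and each group has 10 mice. The intervals of Uroc1, Amdhd1, Haao and Nags lie above 0 and that of Pccb reaches from -1.87 to -0.01; no gene passed the adjusted threshold, and Nags and Haao change sign under both scalings, Uroc1 under quantile normalization.

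Histidine breakdown had the highest median difference of the 10 pathways. All 4 of its enzymes had the higher mean in MSXH, with a median standardized difference of 1.01, though Ftcd turned under both scalings and Uroc1 under quantile normalization (-0.0145). Hal, histidine ammonia-lyase, removes ammonia from histidine to give urocanate. Uroc1 (urocanate hydratase) adds water to urocanate, Amdhd1 (imidazolonepropionase) opens the ring, and Ftcd passes the one-carbon unit to folate.

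Uroc1 ran from 10.16772 through a median of 10.16823 to 10.16832 in HFD, and from 10.16808 through 10.16844 to 10.16926 in MSXH. The groups overlapped, yet MSXH 7 and MSXH 8 stood well clear of every other mouse, at 2.05 and 2.73 SD. The standardized difference was 1.24 (95% interval 0.26 to 2.19, higher in MSXH in 82 of 100 mouse pairs, limma adjusted p = 0.315). Its second probe set gave 0.778.

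Amdhd1 ran from 10.26927 through 10.26969 to 10.27005 in HFD and from 10.26938 through 10.27013 to 10.27103 in MSXH. Here too the groups overlapped, with MSXH 7 and MSXH 8 the highest and HFD 4 the lowest. The standardized difference was 1.17 (0.20 to 2.11, 78 of 100 pairs, limma adjusted p = 0.347), and the second probe set gave 0.879.

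Hal ran from 10.7191 through 10.7230 to 10.7301 in HFD and from 10.7199 through 10.7263 to 10.7337 in MSXH. The lowest mouse of each group lay at nearly the same level. Its standardized difference was 0.855 (-0.08 to 1.76, 73 of 100 pairs, limma adjusted p = 0.501), and 0.522 without MSXH 7 and MSXH 8. Ftcd differed by 0.379 (-0.51 to 1.26), with MSXH 6 the highest and MSXH 10 the lowest.

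Among the 4 enzymes, 2 pairs were set against each other across mice. Amdhd1 and Ftcd correlated at r = 0.764 over 20 mice (permutation p = 0.00012, adjusted over 17 pairs 0.00068; rho = 0.764, permutation p = 0.00016, adjusted 0.000907), with 0.626 within HFD, 0.860 within MSXH and 0.693 without MSXH 7 and MSXH 8. For Hal and Uroc1 r was 0.744 (permutation p = 0.00023, adjusted 0.000782; rho = 0.689, permutation p = 0.00109, adjusted 0.00309). That second relation rested on the 2 farthest mice: r was 0.189 within HFD, 0.868 within MSXH, and 0.448 without MSXH 7 and MSXH 8. With quantile normalization neither pair passed, at 0.410 (adjusted permutation p = 0.147) and 0.243 (adjusted 0.302). Each point of such a pair is 1 array, so the genes of the pair share its RNA and its hybridization. Pairs of genes that are not partners were not tested, so no correlation here is shown to be particular to partner enzymes.

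**Figure D2:**
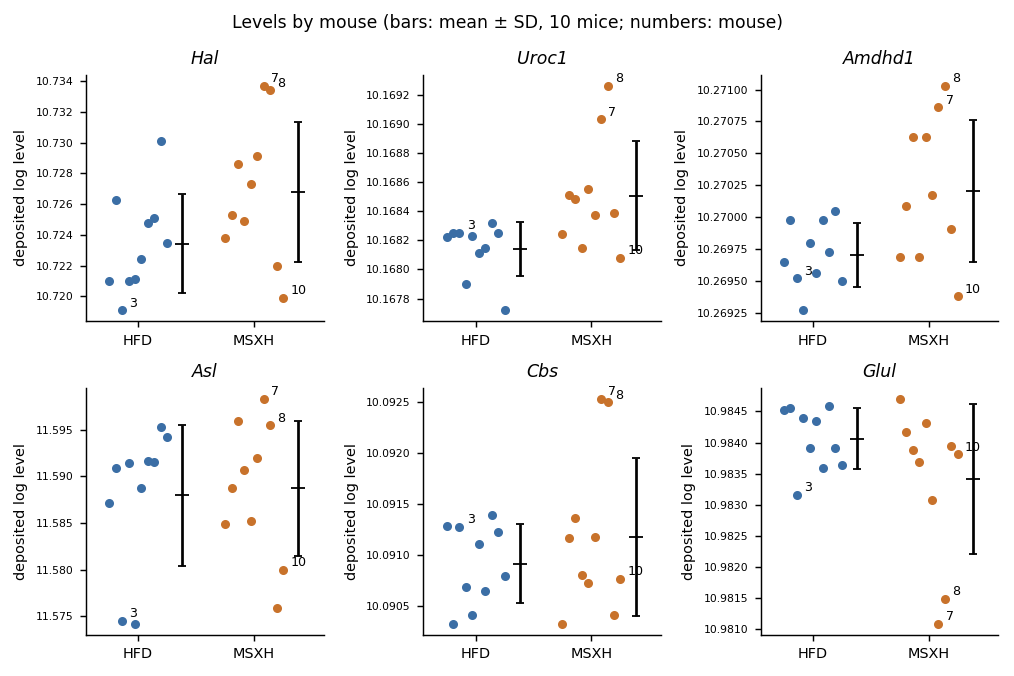
Deposited log level (vertical axis, base not stated, a separate scale for each gene) of 3 histidine genes, Asl, Cbs and Glul in each HFD mouse (blue) and each MSXH mouse (orange), with mean ± SD of 10 mice beside the points and the numbers of HFD 3, MSXH 7, MSXH 8 and MSXH 10. MSXH 7 and MSXH 8 are the 2 highest mice for Hal, Uroc1, Amdhd1 and Cbs and the 2 lowest for Glul, and the groups overlap in every panel.

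Hal and Amdhd1 lie next to each other on chromosome 10 of GRCm38.p6, with no gene of the RefSeq table between them, on opposite strands. The sequences just upstream of the starts of the 3 enzymes of largest difference are shown because all 3 were highest in MSXH 7 and MSXH 8. They are from RefSeq (GRCm38.p6), 5′ to 3′ along the gene's strand, at chr10:93488518-93488767 (plus) for Hal, chr10:93540112-93540283 (minus) for Amdhd1 and chr6:90333039-90333238 (plus) for Uroc1. Capitals mark matches on either strand to TATAAA (a core promoter box), CCAAT (the box bound by NF-Y), TTGCNNAA (a site form of C/EBP factors), TGACG (a cAMP response half-site) and AGAACA (a glucocorticoid receptor half-site), none of which overlap here.
Hal: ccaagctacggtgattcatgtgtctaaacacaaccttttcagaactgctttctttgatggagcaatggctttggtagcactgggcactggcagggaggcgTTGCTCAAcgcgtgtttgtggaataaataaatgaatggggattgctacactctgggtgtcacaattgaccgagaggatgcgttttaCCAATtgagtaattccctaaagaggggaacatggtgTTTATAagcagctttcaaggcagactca
Amdhd1: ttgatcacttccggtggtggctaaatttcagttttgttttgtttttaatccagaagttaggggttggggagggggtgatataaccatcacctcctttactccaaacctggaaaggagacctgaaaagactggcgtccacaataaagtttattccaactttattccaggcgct
Uroc1: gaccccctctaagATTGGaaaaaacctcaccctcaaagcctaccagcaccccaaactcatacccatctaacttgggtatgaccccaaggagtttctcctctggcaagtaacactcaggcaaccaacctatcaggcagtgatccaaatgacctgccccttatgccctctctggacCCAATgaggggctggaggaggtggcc

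In the 250 bases upstream of a start, CCAAT was found in 25 of 46 windows of 40 matched genes of the 10 pathways (54.3%) and in 33.8% of all 32851 windows. TTGCNNAA was found in 6.52% of the windows of these genes and 9.56% of all, TATAAA in 8.70% and 12.4%, TGACG in 15.2% and 17.8%, and AGAACA in 8.70% and 16.1%. In the stretches shown, Hal (250 bases) held the first 3 of the motifs named above, Uroc1 (200 bases) held CCAAT at 2 places, and Amdhd1 (172 bases) held none. The stretches were cut where the annotated gene begins and the counted windows were not, so their lengths differ. A match is a description of the letters and not a site.

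In the urea cycle, the 8 genes had a median standardized difference of 0.11, with a higher mean in MSXH for 5. Cps1 makes carbamoyl phosphate from ammonia, Nags makes the N-acetylglutamate that Cps1 needs, Otc, Ass1, Asl and Arg1 carry the cycle from ornithine to urea, and Slc25a15 and Slc25a13 are the mitochondrial carriers of ornithine and of aspartate. Differences of Cps1 (0.155), Asl (0.103), Arg1 (0.108), Slc25a15 (-0.0726) and Slc25a13 (0.231) all had intervals that covered 0.

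Nags ran from 9.01369 through 9.01379 to 9.01397 in HFD and from 9.01376 through 9.01389 to 9.01404 in MSXH. The upper part of the MSXH range had no HFD mouse, and the lower parts overlapped. The standardized difference was 1.07 (0.12 to 2.00, 78 of 100 pairs, limma adjusted p = 0.387), and it turned to -0.222 with centring and -0.426 with quantile normalization.

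Asl, argininosuccinate lyase, had one of the widest ranges of the 47 genes, from 11.5742 through 11.5912 to 11.5953 in HFD and from 11.5759 through 11.5898 to 11.5983 in MSXH. Each group held a low pair of mice, HFD 3 and HFD 5 in one and MSXH 9 and MSXH 10 in the other. Between the diets Asl differed by 0.103 (-0.78 to 0.98, 53 of 100 pairs, limma adjusted p = 0.956).

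Ass1, argininosuccinate synthase, ran from 6.8016 through 6.8127 to 6.8235 in HFD and from 6.8004 through 6.8093 to 6.8285 in MSXH. The HFD range lay wholly inside that of MSXH, which held both the highest mouse (MSXH 7) and the lowest (MSXH 9). Its standardized difference was -0.344 (-1.22 to 0.54, 37 of 100 pairs, limma adjusted p = 0.812), and -0.947 without MSXH 7 and MSXH 8. Ass1 rests on 1 probe set, since another carries the symbol Gm5424 as well and was left out. The probe set used read close to the array medians (6.5216 to 6.5226). That limits what its difference and its correlation with Asl can say about Ass1.

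Ass1 and Asl, which work in succession, correlated at r = 0.753 (permutation p = 0.00018, adjusted 0.000765; rho = 0.654, permutation p = 0.00237, adjusted 0.00576), with 0.755 within HFD, 0.799 within MSXH and 0.708 without HFD 10 and MSXH 7. Cps1 and Otc, also consecutive, ran against each other: r = -0.623 (permutation p = 0.00338, adjusted 0.00718; rho = -0.633, permutation p = 0.00346, adjusted 0.00735), -0.498 within HFD, -0.731 within MSXH and -0.668 without HFD 5 and MSXH 9. Centring each array turned this relation to 0.930, and with the mean of probe sets it was -0.435 (adjusted permutation p = 0.133). The 3 probe sets of Otc did not give the same difference between diets: the one used gave -0.190, another -0.828 and the third 0.973. Their levels were 12.39, 9.89 and 7.75 in that order.

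Ammonia and glutamate handling outside the cycle was measured by 2 genes. Glud1, glutamate dehydrogenase, frees ammonia from glutamate, and differed by 0.151 (-0.73 to 1.03). Glul, glutamine synthetase, takes up ammonia in the cells around the central vein. It ran from 10.98316 through 10.98414 to 10.98459 in HFD and from 10.98109 through 10.98384 to 10.98470 in MSXH. The low end of MSXH was MSXH 7 and MSXH 8 alone, at -2.78 and -2.36 SD, and the other MSXH mice lay among the HFD mice or just outside them. The standardized difference was -0.707 (-1.60 to 0.21, 34 of 100 pairs, limma adjusted p = 0.585), and -0.241 without those 2 mice. On the second probe set of Glul, which gave -0.941, the same 2 mice were the lowest.

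In MSXH 7 and MSXH 8 other pericentral markers were low too: Cyp2e1 stood at -3.02 and -1.81 SD, Cyp1a2 at -2.55 and -1.65, and the ammonia transporter Rhbg at -1.99 and -1.47. Over the 12 of 13 pericentral markers measured, the mean deviation was -1.21 and -0.91 SD in these mice and between -0.69 and 0.61 in HFD. The summed level ran from 104.721 to 104.801 in HFD and from 104.711 to 104.790 in MSXH. Cyp7a1, with the largest SD of the list (0.0327, against 0.00252 for Cyp1a2 and 3.71e-07 for Cyp2e1), weighs most in that sum. In MSXH 7 and MSXH 8 Cyp7a1 stood above its mean, at 1.51 and 1.22 SD, and Lgr5 at -0.31 and 0.21. The 10 of 12 periportal markers measured stood at 0.46 and 0.58 SD on average in the 2 mice. HFD mice ran from -0.39 to 0.73, but HFD 3 alone set the upper end. The next highest, HFD 2, stood at 0.05, below both mice. The summed level of these markers was 108.109 to 108.204 in HFD and 108.082 to 108.226 in MSXH. Etnppl, Aldh1b1, E2f8 and Hsd17b6 weigh most in it, with the largest SDs (0.0217 to 0.0312). The periportal markers went both ways in the 2 mice: Aldh1b1 stood at 2.96 and 2.39 SD and Etnppl at 2.08 and 2.31. E2f8 stood at -1.65 and -1.75, Ctsc at -1.35 and -0.18 and Hsd17b6 at -0.99 and -0.42. The 6 of 8 hepatocyte markers averaged 0.69 and 1.08, against -0.53 to 0.66 in HFD. No marker was listed at 0. The part of these markers in the values of Glul and of the other genes was not tested.

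Tyrosine breakdown had 4 genes with a median standardized difference of 0.10. Hpd makes homogentisate, Hgd opens its ring, Gstz1 isomerizes the product and Fah splits it into fumarate and acetoacetate. The differences were 0.0253 for Hpd, 0.175 for Hgd and -0.236 for Gstz1. Fah ran from 12.3003712 through 12.3003803 to 12.3003908 in HFD and from 12.3003734 through 12.3003814 to 12.3003898 in MSXH. Its groups covered nearly the same range, and the standardized difference of 0.263 (-0.62 to 1.14, limma adjusted p = 0.868) turned under both scalings.

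On the probe sets used, Hpd and Hgd had the highest r of the 17 pairs of partner enzymes, but with the mean of the 2 probe sets of Hgd it was 0.346 (adjusted permutation p = 0.237). The second probe set of Hgd read 7.52 with an SD of 0.00193, against 12.73 and 0.000173 for the one used. Its variation therefore makes up most of that mean's. The value as used was r = 0.889 (permutation p = 1e-05, the smallest that 100000 permutations can give, adjusted 0.00017; rho = 0.845, permutation p = 2e-05, adjusted 0.00034), 0.891 within HFD, 0.900 within MSXH and 0.868 without HFD 3 and MSXH 10. Both genes were lowest in HFD 3, HFD 5, MSXH 1, MSXH 9 and MSXH 10, and high in HFD 9, MSXH 7 and MSXH 8. Gstz1 and Fah, the next 2 steps, correlated at 0.275 (permutation p = 0.239, adjusted 0.339; rho = 0.257, permutation p = 0.272, adjusted 0.356), with 0.840 within HFD (permutation p = 0.00086, adjusted 0.00731) and -0.165 within MSXH.

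In the tryptophan pathway, 5 genes of the kynurenine route had a median standardized difference of 0.12. Tdo2, tryptophan dioxygenase, opens the route and Afmid follows it, Kmo and Kynu work on kynurenine, and Haao makes the precursor of quinolinate. Haao ran from 10.806432 through 10.806558 to 10.806587 in HFD and from 10.806513 through 10.806611 to 10.806672 in MSXH. The lower parts of the ranges overlapped, and the higher MSXH mice had no HFD counterpart. Haao differed by 1.14 (0.18 to 2.08, 77 of 100 pairs, limma adjusted p = 0.356), which turned to -0.384 with centring and -0.243 with quantile normalization.

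Afmid differed by 0.913 (-0.02 to 1.83), and its other 3 probe sets gave 1.11, 1.22 and 0.181, all with the higher mean in MSXH; on the probe set used, both scalings turned this. The remaining members gave -0.0887 for Tdo2, -0.198 for Kmo and 0.124 for Kynu. Tdo2 and Afmid correlated at -0.070 (permutation p = 0.769, adjusted 0.817; rho = -0.081, permutation p = 0.735, adjusted 0.781), and Kmo and Kynu at 0.206 (permutation p = 0.384, adjusted 0.500; rho = 0.280, permutation p = 0.233, adjusted 0.329).

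The branched-chain pathway had 9 genes and a median standardized difference of 0.54, with a higher mean in MSXH for 6. Bcat2 is the transaminase of muscle and other tissues outside the hepatocyte, and Bckdha, Bckdhb and Dbt are subunits of the branched-chain ketoacid dehydrogenase. Ivd, Mccc1 and Mccc2 belong to leucine breakdown, and Pcca and Pccb are the subunits of propionyl-CoA carboxylase. On the probe sets used, the differences of Ivd (0.813), Mccc1 (0.665), Mccc2 (0.843), Pcca (0.742) and Dbt (0.544) had intervals covering 0, and centring turned all 5. Second probe sets gave 1.01 (0.06 to 1.93) for Mccc1 and 0.762 (-0.16 to 1.66) for Ivd. Other probe sets of Mccc2 gave -0.25 and 0.162.

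Pccb ran from 9.6246341 through 9.6246393 to 9.6246563 in HFD and from 9.6246226 through 9.6246317 to 9.6246496 in MSXH. The lower MSXH mice lay below every HFD mouse, and the rest overlapped. The standardized difference was -0.953 (-1.87 to -0.01, higher in MSXH in 21 of 100 pairs, limma adjusted p = 0.484), against 0.742 (-0.18 to 1.64) for its partner subunit Pcca, whose other probe set gave -0.996. That other probe set read 6.04, below the array medians, against 9.91 for the one used.

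The subunits of 3 enzymes could be set against each other. Mccc1 and Mccc2 correlated at r = 0.658 (permutation p = 0.00195, adjusted 0.00474; rho = 0.696, permutation p = 0.00081, adjusted 0.00309), with 0.629 within HFD, 0.608 within MSXH and 0.731 without HFD 10 and MSXH 7, but at 0.188 (adjusted permutation p = 0.501) with the mean of probe sets. Other probe sets of Mccc2 read 7.32 and 8.75, with SDs of 7.1e-05 and 3.3e-05, against 9.81 and 1.07e-05 for the one used. Bckdha and Bckdhb gave 0.371 (permutation p = 0.109, adjusted 0.186; rho = 0.463, permutation p = 0.0425, adjusted 0.0723), and Pcca and Pccb 0.038 (permutation p = 0.873, adjusted 0.873; rho = -0.093, permutation p = 0.698, adjusted 0.781).

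**Figure D3:**
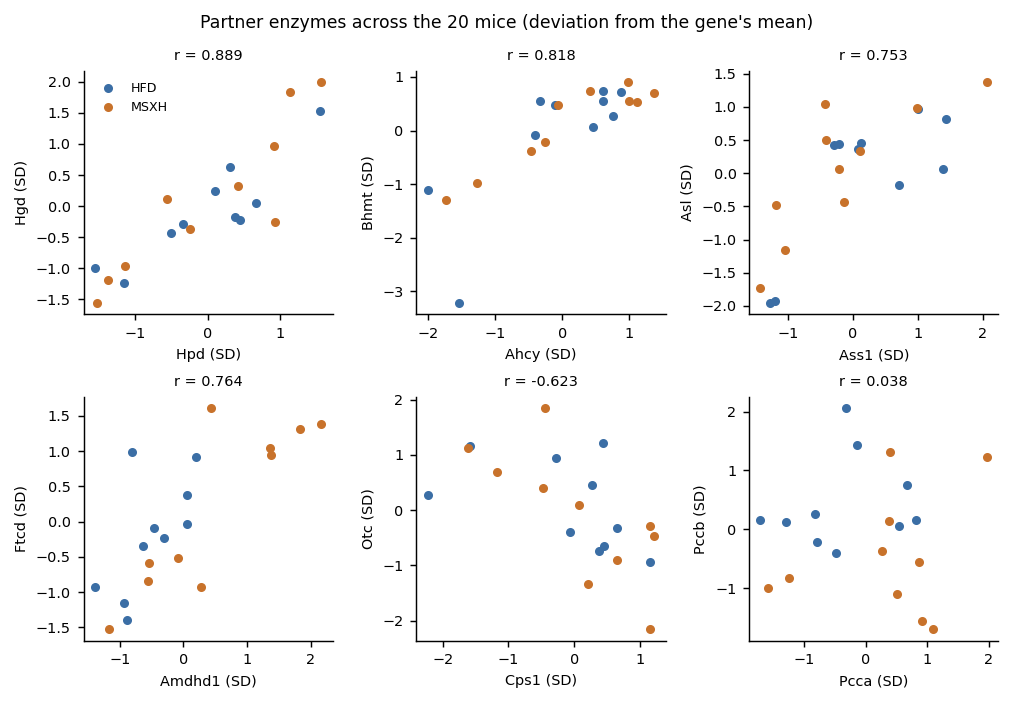
Each panel plots 2 partner genes against each other, both as deviation from the gene's mean in SD over 20 arrays, with HFD mice in blue and MSXH mice in orange and Pearson's r above. Hpd and Hgd, Ahcy and Bhmt, Ass1 and Asl, and Amdhd1 and Ftcd rise together, Cps1 and Otc run against each other (with arrays centred they rise together, at 0.930; with the mean of probe sets Hpd and Hgd give 0.346), and the 2 subunits of propionyl-CoA carboxylase show r = 0.038.

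Methionine and sulfur metabolism had 8 genes and a median standardized difference of 0.21. Mat1a makes S-adenosylmethionine, Gnmt uses it up on glycine, Ahcy splits the product and Bhmt returns homocysteine to methionine. Cbs and Cth take homocysteine to cysteine, and Cdo1 and Csad take cysteine towards taurine. Their standardized differences ran from -0.082 (Cdo1) to 0.500 (Gnmt).

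Gnmt ran from 13.767778 through 13.767798 to 13.767820 in HFD and from 13.767779 through 13.767803 to 13.767839 in MSXH. MSXH 7 and MSXH 8 stood above all other mice and the rest overlapped; the difference was 0.500 (-0.40 to 1.38, 63 of 100 pairs, limma adjusted p = 0.714), 0.0183 without those 2 mice and -0.624 with centring. Cbs stood at 2.42 and 2.37 SD in the same 2 mice, while no other mouse exceeded 0.55 SD.

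Csad ran from 9.6198 through 9.6290 to 9.6400 in HFD and from 9.6214 through 9.6299 to 9.6377 in MSXH. Its highest mice were HFD 3 and MSXH 10, at 1.94 and 1.53 SD, which were the 2 lowest for 10 other genes of the 47. The diets differed by 0.156 (-0.72 to 1.03, 56 of 100 pairs, limma adjusted p = 0.929).

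Ahcy and Bhmt correlated at r = 0.818 (permutation p = 2e-05, adjusted 0.00017; rho = 0.789, permutation p = 7e-05, adjusted 0.000595), with 0.780 within HFD, 0.936 within MSXH and 0.795 without HFD 5 and MSXH 9. Mat1a and Gnmt gave 0.723 (permutation p = 0.00039, adjusted 0.0011; rho = 0.684, permutation p = 0.00103, adjusted 0.00309), with 0.645 and 0.859 within the groups and 0.666 without HFD 3 and HFD 5. For Cbs and Cth r was 0.606 (permutation p = 0.00428, adjusted 0.00808; rho = 0.466, permutation p = 0.0394, adjusted 0.0723), but -0.136 within HFD, 0.897 within MSXH and 0.205 without MSXH 7 and MSXH 8, on which it rested. Cdo1 and Csad gave -0.194 (permutation p = 0.411, adjusted 0.500; rho = -0.044, permutation p = 0.855, adjusted 0.855).

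Proline and ornithine breakdown was measured by 3 genes. Prodh and Aldh4a1 oxidize proline to glutamate in turn, and Oat, ornithine aminotransferase, sits mainly in the pericentral cells. Aldh4a1 ran from 7.891591 through 7.891619 to 7.891683 in HFD and from 7.891602 through 7.891644 to 7.891687 in MSXH. With ranges nearly alike, it differed by 0.773 (-0.15 to 1.67, 71 of 100 pairs, limma adjusted p = 0.549), and both scalings turned it. Prodh ran from 9.1284 through 9.1401 to 9.1469 in HFD and from 9.1359 through 9.1430 to 9.1467 in MSXH. HFD 3 lay far below the others, at -2.73 SD, and the difference was 0.476 (-0.42 to 1.36, 61 of 100 pairs, limma adjusted p = 0.728). Oat differed by -0.619 (-1.51 to 0.29). Prodh and Aldh4a1 correlated at 0.127 (permutation p = 0.600, adjusted 0.680; rho = 0.101, permutation p = 0.673, adjusted 0.781), and Glul and Oat at 0.283 (permutation p = 0.225, adjusted 0.339; rho = 0.322, permutation p = 0.167, adjusted 0.258).

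Glycine, serine and glyoxylate were covered by 3 measured genes: Gldc is the glycine decarboxylase of the cleavage system, Shmt1 exchanges serine and glycine in the cytosol, and Agxt clears glyoxylate in peroxisomes. Gldc ran from 10.26910 through 10.27032 to 10.27130 in HFD and from 10.26892 through 10.27063 to 10.27217 in MSXH. MSXH held both the lowest and the highest mouse. The difference was 0.315 (-0.57 to 1.19, 60 of 100 pairs, limma adjusted p = 0.831), and -0.0832 without MSXH 7 and MSXH 8. Agxt differed by 0.289 and Shmt1 by 0.0742, while other probe sets of Shmt1 gave 0.865, 0.563 and -0.274. Aass, the first enzyme of lysine breakdown, ran from 11.9670 through 11.9701 to 11.9720 in HFD and from 11.9669 through 11.9696 to 11.9721 in MSXH. These ranges were nearly the same, and the difference was -0.147 (-1.02 to 0.73, limma adjusted p = 0.933).

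Single mice stood far apart, within a diet as well as between the diets. MSXH 7 was the highest of 20 mice for 17 of the 47 genes (36.2%, against 8.02% of all genes), and MSXH 7 and MSXH 8 were together the 2 highest for 16 (34.0%, against 3.10% of all genes). These 16 were Cps1, Arg1, Slc25a15, Hal, Uroc1, Amdhd1, Hgd, Tdo2, Kynu, Dbt, Gnmt, Ahcy, Cbs, Cth, Agxt and Gldc. Glul was the 1 gene for which both were lowest. The median deviation of the 47 genes was 1.20 SD in MSXH 7 and 0.99 in MSXH 8, where that of all genes was -0.02 and 0.13.

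At the other end, HFD 3 was the lowest mouse for 16 genes (34.0%, against 7.93% of all genes), with a median deviation of -1.39 SD, and MSXH 10 followed at -1.15, HFD 5 at -0.87 and MSXH 9 at -0.80. HFD 3 and MSXH 10 were the 2 lowest for 10 genes (21.3%, against 1.51% of all genes): Hal, Ftcd, Hpd, Fah, Bckdhb, Mccc2, Gnmt, Cth, Oat and Aass. HFD 5 and MSXH 9 were the 2 lowest for Cps1, Ass1, Tdo2, Dbt, Ahcy and Gldc. Both diets thus held low mice, and the 2 high mice were both MSXH. These mice were singled out after their values were seen, so the counts are descriptions. Without MSXH 7 and MSXH 8, 1 of the 47 genes, Uroc1, kept an unadjusted p under 0.05 (2.13%, against 8.38% of all genes), and 22 had the higher mean in MSXH (46.8%, against 54.9%).

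The pathways did not share one order of mice. In the branched-chain set the highest median deviation was that of MSXH 5 (1.37 SD), with MSXH 7 at 0.02 and MSXH 8 at 0.30, and MSXH 5 was the top mouse for Bckdhb, Ivd, Mccc2 and Pcca. HFD 5, low for the urea cycle (-1.22) and for methionine and sulfur (-1.10), stood at 0.60 for the branched-chain set. HFD 3 and MSXH 10 were low in both, at -1.24 and -1.27 SD for the branched-chain genes.

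**Figure D4:**
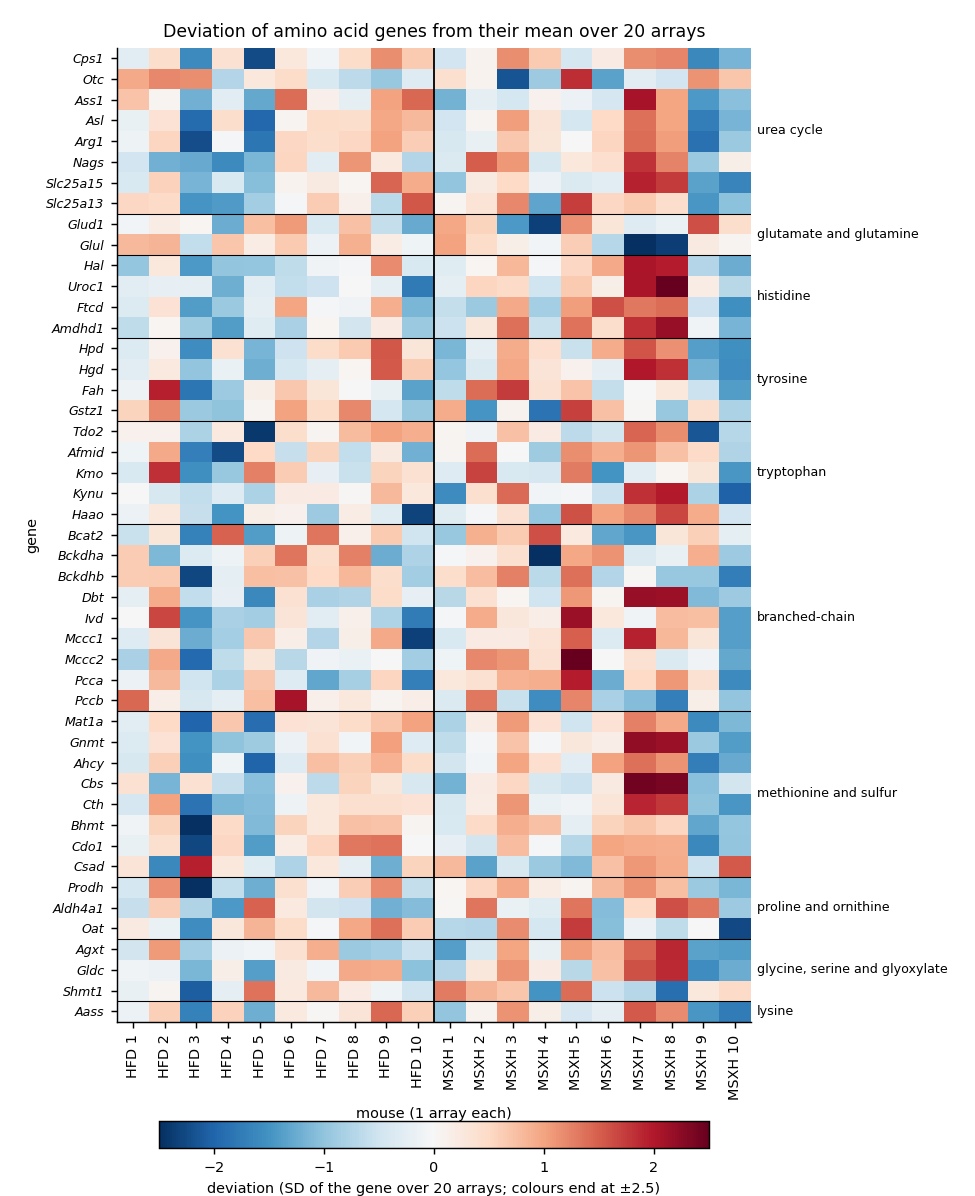
Deviation of each of the 47 genes (rows, by pathway) from its mean in each of the 20 mice (columns, HFD left and MSXH right of the line), in SD of the gene over 20 arrays (red above the mean, blue below). MSXH 7 and MSXH 8 are red in most rows and blue for Glul, HFD 3 and MSXH 10 are blue in most rows, and MSXH 5 is red across most branched-chain genes.

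Scaling changed these counts. MSXH 7 was the highest for 11 genes with centring and for 6 of 38 with quantile normalization, and HFD 3 the lowest for 5 and 3. Of the 7 genes with an SD above 0.001 (14.9% of the 47, against 3.09% of all genes), Ass1, Asl, Hal and Cth were highest in MSXH 7 under either scaling, as deposited, and without MSXH 4 and MSXH 6. In HFD 3 the macrophage markers averaged 1.27 SD and the stellate cell markers 1.04, the highest of the HFD mice on both lists. The other HFD mice ran from -0.94 to 0.35 and from -0.87 to 0.78. In MSXH 10 these lists averaged 0.55 and 0.83, in MSXH 7 -0.76 and -0.10, and in MSXH 8 0.45 and -0.09. In the other low mice they averaged -0.04 and 0.78 (HFD 5) and 1.65 and 0.50 (MSXH 9). The macrophage markers also averaged 1.40 in MSXH 1 and 1.10 in MSXH 2, where the median deviation of the 47 genes was -0.38 and 0.20 SD. The summed level of the 12 macrophage markers ran from 104.202 to 104.225 in HFD and from 104.200 to 104.231 in MSXH, and that of the 8 stellate markers from 65.328 to 65.369 and from 65.326 to 65.388. Marco and Col3a1, with the largest SDs of these lists (0.00568 and 0.0114), weigh most in the sums. The part of these cells in the low values was not tested.

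Further genes of the same metabolism were read from 3 lists: enzymes, transporters, and regulators. Of 96 genes, 88 were measured, 0 passed the adjusted threshold, and 8 higher and 3 lower stood at an unadjusted p under 0.05 (12.5%, against 10.9% of all genes), 7 in all without HFD 6. Aspg, an asparaginase, ran from 9.65335 through 9.65348 to 9.65357 in HFD and from 9.65357 through 9.65365 to 9.65383 in MSXH. No HFD mouse lay above an MSXH mouse, with a standardized difference of 2.63 (1.39 to 3.83, 100 of 100 pairs, limma adjusted p = 0.0728). Aadat, an aminotransferase of kynurenine and aminoadipate, differed by -1.54 (-2.53 to -0.51, adjusted p = 0.243 in limma).

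Of the transporters, Slc38a2, which takes up small neutral amino acids, gave -1.68 (-2.69 to -0.63) and Slc1a2, a glutamate carrier of pericentral cells, -1.19 (-2.14 to -0.22). Of the regulators, the transcription factor Cebpa gave 1.58 (0.55 to 2.57) and the glucagon receptor Gcgr 1.38 (0.38 to 2.35). Their limma adjusted p ran from 0.210 for Slc38a2 to 0.334 for Slc1a2, so none passed. HFD 3 was the lowest mouse for 20 of the 88 genes (22.7%, against 7.93% of all genes) and MSXH 7 the highest for 7 (7.95%, against 8.02%).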

How the data were processed

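Per the labels' protocols, liver RNA was extracted with TRIzol and RNeasy, labelled with biotin by 3' IVT amplification and put on Affymetrix arrays. The deposited values were taken as log2-like levels of probe sets from their range, 5.17 to 15.01, with the base, background correction and normalization not given in the sources used here. Probe sets with 1 symbol in the platform table were kept, and the probe set with the highest mean stood for a gene, with no filter on level. The 2 groups were fitted with limma 3.58.1 in R 4.3.3 (lmFit, eBayes with trend, two-sided, Benjamini-Hochberg at 0.05 over 18193 genes), and confidence intervals were from the noncentral t distribution at 95%. Correlations of 17 pairs over mice used two-sided tests of 100000 permutations (Python 3.11.15, scipy 1.17.1), and motifs were searched in RefSeq promoter windows. The fit and the correlation test were tested on simulated data.

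The members, lists, pairs and tests were chosen with earlier results of these data known. Named were, in each pathway, the gene of smallest p, those at an unadjusted p under 0.05, the 5 of largest SD, and 2 genes of each related list; other genes with levels or deviations in the text were picked with their values known. Replicate numbers were taken only to name mice, since the labels give no pairing. Same-numbered mice correlated between -0.265 and 0.165, without a comparison to differently numbered mice. Alternatives were other scalings, probe set rules, variance models, a rank sum test, a level filter, a replicate block and leaving out arrays; leaving out MSXH 7 and MSXH 8, or HFD 3 and MSXH 7, was added after seeing the data.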

Additional observations from a re-analysis of the deposited data

Results flagged for a closer look

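In 3 of 94 groups of 10 mice (47 genes in 2 diets) the extreme mouse lay farther from its neighbour, relative to the range of the group, than Dixon's limit of 0.466, where chance gives about 1 in 20. All 3 were low HFD mice. Tdo2 was 13.736647 in HFD 5, where the other HFD mice ran from 13.736711 to 13.736783. Bhmt was 13.88105 in HFD 3, with the others from 13.88146 to 13.88181. Oat was 12.32113 in HFD 3, with the others from 12.32131 to 12.32152.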

How the results depend on the processing

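Settings were changed on their own, except that MSXH 4 and MSXH 6 were also left out together with either scaling. The number of all genes called by limma stayed at 0 except for 1 with the mean of probe sets, 4 with the rank sum test, 12 at an adjusted p of 0.10, and 0 to 3 on leaving out each array. No setting called any of the 47 genes. Of the 23 other probe sets, from the 16 genes with several, 16 gave the sign of the one used and 7 the opposite. Before adjustment 4 of the 47 stood at a p under 0.05, all higher in MSXH, but with quantile normalization 2, both lower, with centring 0, 2 with centring and without MSXH 4 and MSXH 6, 1 without MSXH 7 and MSXH 8, 7 with the most variable probe set, 10 of 70 over all probe sets, and 3 to 9 on leaving out each array. The related genes, 11 at that mark, gave 3 with either scaling, 5 with centring and without MSXH 4 and MSXH 6, 20 over all probe sets, and 7 to 13 on leaving out each array. MSXH 7 was highest for 6 and 11 genes with quantile normalization and centring, in place of 17, and HFD 3 lowest for 3 and 5, in place of 16.

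Directions that turned with quantile normalization were those of Nags (-0.426), Uroc1 (-0.0145), Fah (-0.447), Haao (-0.243), Aldh4a1 (-0.705) and Gldc (-0.207), and with centring those of Nags (-0.222), Fah (-0.658), Haao (-0.384), Gnmt (-0.624) and Aldh4a1 (-0.539). Without MSXH 4 and MSXH 6, centring turned Fah (-0.000491), and quantile normalization turned Haao (-0.0484), Pccb (0.652), Aldh4a1 (-0.424), Gldc (-0.0276), Aass (0.0751) and Asl (-0.0272). Without MSXH 7 and MSXH 8, Gldc (-0.0832), Asl (-0.18) and Csad (-0.0688) turned, and array weights turned Asl (-0.0757). On leaving out each array, Aass ran from -0.363 to 0.0364, Asl from -0.113 to 0.319 and Csad from -0.0105 to 0.418. The other named genes kept their direction on leaving out each array. The cause of these turns was not tested. Quantile normalization left 9 of the 47 genes, Gnmt among them, without any spread, so that no value could be computed for them. Ass1, below the median gene, had none under the level filter.

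Of 17 pairs, 9 passed an adjusted p of 0.05, against 2 within HFD, 14 with centring, 3 of the 11 that quantile normalization left, and 6 with the mean of probe sets, where Hpd and Hgd (0.346), Mccc1 and Mccc2 (0.188) and Cps1 and Otc (-0.435) did not pass. No share of other gene pairs was computed, so the count is not shown to be particular to partners. Asl and Mat1a, of different pathways, stood at -1.92 and -1.99 SD in HFD 3 and at 1.38 and 1.26 in MSXH 7. Centring offsets MSXH 4 and MSXH 6 against the other arrays in every gene. The pairs were not computed with centring and without these 2 arrays, so the part of this offset in the centred relations was not tested. Centring is therefore not used here to decide a relation between genes of low spread. Cps1 and Otc turned with centring (0.930). So did Tdo2 and Afmid (0.925, also 0.092 within MSXH and 0.199 with the mean of probe sets), and Cdo1 and Csad (0.027, also 0.333 within MSXH). Prodh and Aldh4a1 gave -0.012 with centring, -0.279 with quantile normalization and -0.018 without HFD 3 and MSXH 7. Gstz1 and Fah gave -0.165 within MSXH, Cbs and Cth -0.136 within HFD, and Pcca and Pccb a Spearman rho of -0.093.

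With the replicate number as a block, 0 genes were called and 5 of the 47 had an unadjusted p under 0.05. The labels give no pairing by number, and same-numbered mice correlated between -0.265 and 0.165. Differently numbered mice were not correlated, so these values cannot exclude a factor shared by number. The block turned no gene of the 47. The number of arrays limits the precision: with 10 mice per group, the interval of a difference as small as that of Asl, 0.103, ran from -0.78 to 0.98.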
